A study of Mus musculus with 384 samples.

Results

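Lumican, the product of Lum, is a proteoglycan of collagen-rich matrix, and its transcript split the collagen-expressing PDGFRB+CD45- wells of 8-week-old mouse kidney into a Lum-positive and a Lum-negative class. A well held 1 sorted cell. The wells were chosen by 4 limits: the PDGFRB+CD45- sort gate, at least 50000 reads on genes, at most 1 of 7 endothelial genes at 100 CPM (the gene's read count scaled to the total of the well), and a sum of Col1a1, Col1a2 and Col3a1 of at least 2000 CPM. These limits kept 80 of 384 wells, out of 192 in the gate, and Lum at 100 CPM divided them. In batch 1, 13 of 44 chosen wells were Lum-positive (29.5%, exact Clopper-Pearson 95% interval 16.8 to 45.2%), and in batch 2, 17 of 36 (47.2%, 30.4 to 64.5%).

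The series sorted PDGFRB+CD45- and PDGFRB+CD45+ cells of mouse kidney in 2 batches, 1 plate of 96 wells for each gate and batch, and its title asks how far monocytes add to myofibroblasts of the fibrotic kidney. All wells carry the abbreviation UUO in their names, which the labels do not spell out, and both classes come from the same plates, so no group without it serves as a control. Strain, sex and the number of mice behind a plate are not in the labels. Since no animal is named, a plate is 1 sample and cells are not replicates, so no test was run, and batch 2 serves as the only repeat of batch 1. The chosen wells were Lum-positive or Lum-negative by the very reads compared below, so the differences are descriptions and not tests.

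Fibroblasts of the renal interstitium and of the sheath around vessels build a matrix of fibrillar collagen. Small leucine-rich proteoglycans, among them lumican, decorin and osteomodulin, bind these fibrils and help to set their spacing and thickness. PDGFRB is carried by pericytes, mesangial cells, vascular smooth muscle and fibroblasts alike, so a gate on it takes in several stromal cell types, and contractile genes such as Acta2 mark the smooth muscle and myofibroblast end of that range.

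Lum itself was far from the limit in most wells. Lum-positive wells had from 183 CPM through a median of 2096 to 5451 CPM in batch 1, and from 112 through 1366 to 9512 CPM in batch 2. Lum-negative wells had 0 to 72.6 CPM (median 12.2) in batch 1 and 8.06 to 83.4 CPM (median 19.4) in batch 2. The values nearest to the limit were thus 183 and 72.6 CPM in batch 1 and 112 and 83.4 CPM in batch 2. In reads, Lum-negative wells held 0 to 22 and 3 to 25 Lum reads, and the wells under 50000 reads of the same plates, which were not chosen, held 0 to 15 and 1 to 24. The highest Lum-negative wells, at 22 and 25 reads, were thus close to the highest nearly empty wells, at 15 and 24 reads. In CPM, 15 of 17 nearly empty wells of batch 1 and 14 of 14 of batch 2 reached the Lum limit of 100 CPM. A few reads thus pass this limit in a shallow well, and the limit depends on depth. The Lum-positive well of batch 2 with fewest Lum reads, replicate 81, had 14, within the range of the nearly empty wells. The collagen sums nearest to the limit of 2000 CPM were 2742 inside and 1302 outside in batch 1, and 2153 and 1612 in batch 2. The endothelial limit lay in no gap. The 1 gene allowed was at 100 CPM in 1 of 13 Lum-positive and 6 of 31 Lum-negative wells of batch 1, and in 4 of 17 and 4 of 19 of batch 2.

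Lum-positive wells were somewhat deeper. Median reads per Lum-positive well were 475964 in batch 1 and 487521 in batch 2, and the median numbers of genes with a read were 4663 and 4152. For Lum-negative wells the medians were 370834 and 374882 reads, and 3718 and 4018 genes. All wells together had 96370 to 1026440 reads. Summed over a class, the reads were 6503928 and 12178652 in batch 1 and 8084651 and 8512487 in batch 2, Lum-positive first.

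Dcn (decorin), Mfap4, Fbln1, Pi16 and Cd200 were higher with Lum in many wells of both batches. With Lum itself, 6 genes, 0.12% of those tested, were at least 4-fold higher in the Lum-positive class in each batch, with all wells and without any single well, and reached 100 CPM in at least 1 in 3 of the Lum-positive wells of both batches. No gene met the same description in the Lum-negative class. The limit on the share of wells was added after the data were seen. Without it, 37 genes were called higher in the Lum-positive class and 106 in the Lum-negative class, of 5020 genes with at least 20 CPM in 1 class in both batches. These are 0.737% and 2.11% of the genes tested. Ratios are log2 of the class levels, each the CPM of reads summed over the wells of a class plus a pseudocount of 1, and the median over all genes tested was -0.22 in batch 1 and -0.12 in batch 2.

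Most of these calls rested on few wells and on the limits of the choice. Of the called genes named here, 13 of 21 in the Lum-positive direction (Lum included) and 14 of 19 in the Lum-negative direction lost the call under at least 1 of 18 alternatives (the limit on the share of wells not among them). In the Lum-positive direction, Mfap4, Pi16, Entpd2, Tmeff2, Sfrp4, Epha3, Wisp2 and Lum itself kept it under all 18. Some of the 18, such as the 2-fold limit and the call without the check on single wells, only loosen the rule, so no call could be lost under them. With no endothelial gene allowed at 100 CPM, 20 of the 37 and 64 of the 106 genes were still called. A gene called higher in the Lum-positive class reached 100 CPM in a median of 3 of 13 wells and 4 of 17 wells, and one called higher in the Lum-negative class in a median of 3 of 31 and 3 of 19. At 4-fold in both batches, without any single well, 143 genes had the same direction in both batches and 61 had opposite directions: 12 were higher in the Lum-positive class in batch 1 and lower in batch 2, and 49 the reverse. With all wells and no check on single wells, 506 genes had the same direction (172, or 3.43% of those tested, higher in the Lum-positive class and 334, or 6.65%, in the Lum-negative class) and 385 had opposite directions. Among genes that also reached 100 CPM in 1 in 3 wells of the higher class, the 6 above had the same direction and 0 had opposite ones. Lum, which is split by construction, is among the 6, and this limit was added after the data were seen. The 6 and 0 are thus no measure of agreement between batches.

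**Figure D1:**
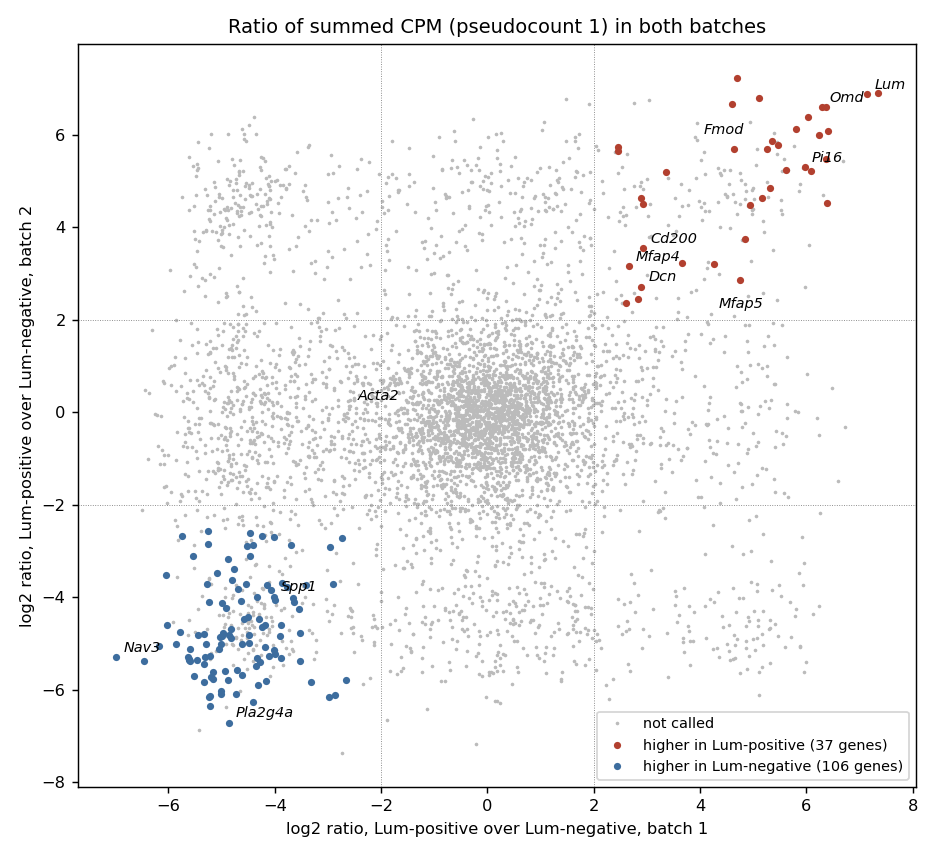
Log2 ratio of the class level in Lum-positive over Lum-negative wells, batch 1 on the horizontal and batch 2 on the vertical axis, 1 point per gene tested. Dotted lines mark 4-fold; 37 genes (red) and 106 genes (blue) were called, and many uncalled genes lie in the corners where the batches have opposite signs.

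Dcn encodes decorin, the best known relative of lumican. It was above 100 CPM in 13 of 13 and 17 of 17 Lum-positive wells, and in 22 of 31 and 14 of 19 Lum-negative wells. Its lowest, median and highest values were 154, 7477 and 22291 CPM in Lum-positive and 25, 482 and 8757 CPM in Lum-negative wells of batch 1. In batch 2 they were 238, 7943 and 43087 CPM against 40.3, 149.6 and 15940.5 CPM. The classes overlapped in both batches, and the Lum-negative class held both Dcn-rich and Dcn-poor wells. The log2 ratio of the class levels was 2.89 in batch 1 and 2.71 in batch 2. Without the Lum-negative well replicate 47 of batch 2, which held 59% of the Dcn reads of its class, the second was 3.89. In wells with none of the 7 endothelial genes at 100 CPM, Dcn had ratios of 2.68 and 2.13 and was no longer called.

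Mfap4 encodes a glycoprotein of elastic microfibrils. Wells at 100 CPM numbered 12 of 13 and 12 of 17 Lum-positive and 12 of 31 and 8 of 19 Lum-negative. Medians were 1404 against 37.4 CPM in batch 1 and 1867 against 43.2 CPM in batch 2, with highest values of 3725 against 3940.2 and 9034 against 1449 CPM. The log2 ratios were 2.65 and 3.16, and no single well moved either by more than 1.5 times.

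Fbln1, for the secreted matrix protein fibulin 1, reached 100 CPM in 10 of 13 and 10 of 17 Lum-positive wells, against 10 of 31 and 3 of 19. Its medians were 787 against 21.3 CPM and 375 against 3.66 CPM. The log2 ratios were 2.83 and 2.45, and without the Lum-negative well replicate 48 of batch 2 the second was 3.64. Thinning each well to 50000 reads before summing gave 2.20 and 2.51, and Fbln1 was then not called.

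Pi16, a peptidase inhibitor known as a marker of fibroblasts in the outer sheath of vessels, reached 100 CPM in 8 of 13 Lum-positive wells of batch 1 (61.5%, 31.6 to 86.1%) and 1 of 31 Lum-negative wells (3.23%, 0.0816 to 16.7%). In batch 2 the counts were 7 of 17 (41.2%, 18.4 to 67.1%) and 0 of 19, which allows a share of up to 17.6%. Values ran from 6.16 through 694 to 4256 CPM in Lum-positive and from 0 through 14.4 to 503 CPM in Lum-negative wells of batch 1. In batch 2 they ran from 0.985 through 51.5 to 2532 CPM and from 0 through 5.72 to 20.1 CPM. Some Lum-positive wells in each batch were thus as low as Lum-negative ones. Ratios of the summed levels were 5.97 and 5.30 on the log2 scale. After thinning to 50000 reads, at least 5 Pi16 reads were found in 8 and 7 Lum-positive and in 2 and 0 Lum-negative wells.

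Cd200, a membrane glycoprotein whose receptor sits on myeloid cells, was named after its values were seen. Levels of 100 CPM were found in 6 of 13 and 7 of 17 Lum-positive wells and in 1 of 31 and 1 of 19 Lum-negative wells. Its medians, 69.8 against 14.3 CPM and 20.1 against 10.3 CPM, lay below 100 CPM in both classes, so that the difference sat in the upper wells. The log2 ratios were 2.93 and 3.55. Without the single Lum-negative well above 100 CPM in each batch, replicates 19 and 65, they were 5.15 and 4.36. With the Lum limit at 200 CPM Cd200 was not called.

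**Figure D2:**
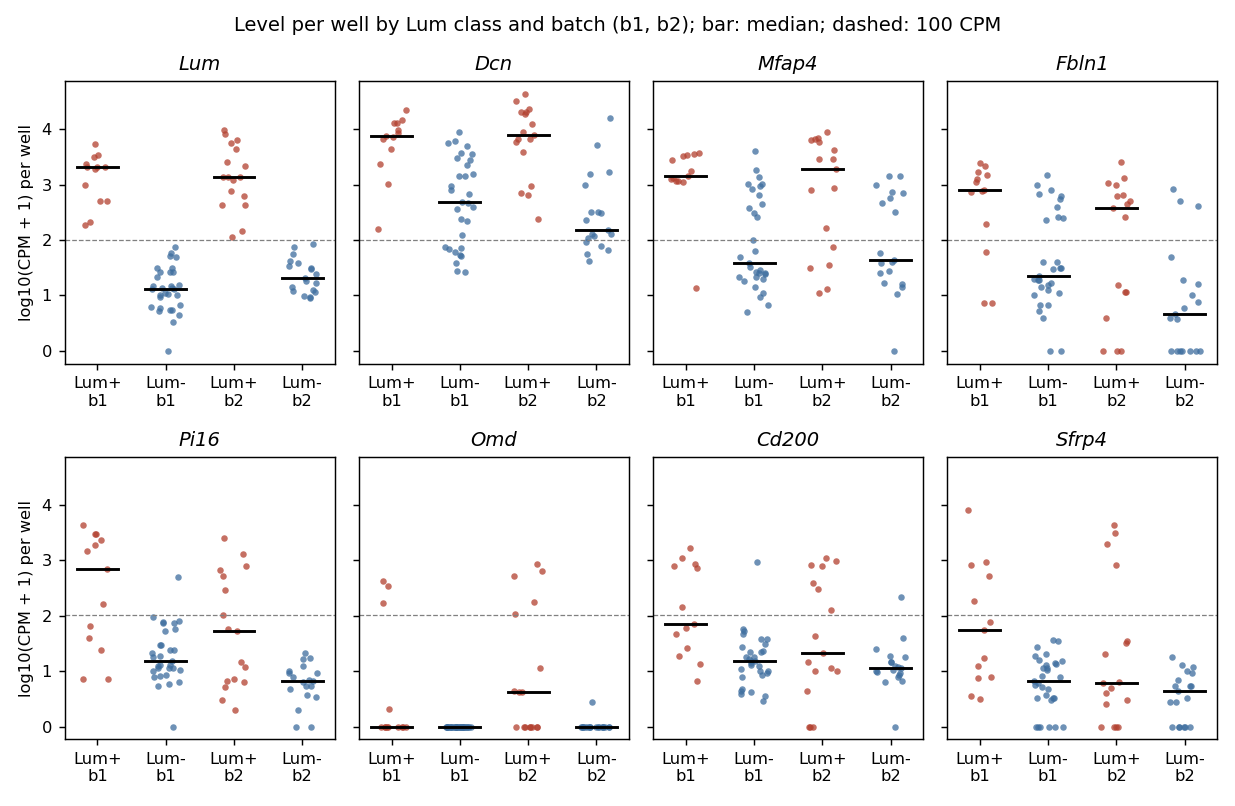
Level of 8 genes in each well as log10(CPM + 1), for Lum-positive (red) and Lum-negative (blue) wells of batch 1 (b1) and batch 2 (b2), with the class median as a bar and 100 CPM dashed. Lum is split by construction; Dcn, Mfap4 and Fbln1 overlap between classes, while Pi16 passes 100 CPM in 1 of 50 Lum-negative wells and Omd in none.

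Omd encodes osteomodulin, another small leucine-rich proteoglycan, and is 1 of 4 genes of this kind that lie side by side on mouse chromosome 13 in the RefSeq annotation of GRCm38.p6, with Ogn, Aspn and Ecm2. Lum and Dcn are neighbours of each other elsewhere, next to Kera and Epyc. The 250 bases before the start of each of the 4 genes on chromosome 13, and of Pi16, are printed to show what lies upstream of the genes that did and did not go with Lum. They are from the RefSeq promoter table of GRCm38.p6, on the plus strand, which is the strand of all 5 genes, at chr13:49582212-49582461 (Omd), chr13:49607765-49608014 (Ogn), chr13:49544193-49544442 (Aspn), chr13:49504560-49504809 (Ecm2) and chr17:29318632-29318881 (Pi16), written 5′ to 3′. Capitals mark every match, on either strand, to 3 promoter motifs. The TATA box was searched as TATAAA. The second motif, the box that the factor NF-Y binds, was searched as CCAAT. The GC box that Sp1 binds was searched as GGGCGG. In Ogn a match to the TATA box on each strand overlaps the other. That table holds entries for 25 of the 37 genes called higher in the Lum-positive class.
Omd: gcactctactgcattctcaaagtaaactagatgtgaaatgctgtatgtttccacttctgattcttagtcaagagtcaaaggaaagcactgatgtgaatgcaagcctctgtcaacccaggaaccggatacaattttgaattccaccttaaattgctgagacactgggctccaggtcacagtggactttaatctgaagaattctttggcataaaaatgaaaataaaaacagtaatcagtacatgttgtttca
Ogn: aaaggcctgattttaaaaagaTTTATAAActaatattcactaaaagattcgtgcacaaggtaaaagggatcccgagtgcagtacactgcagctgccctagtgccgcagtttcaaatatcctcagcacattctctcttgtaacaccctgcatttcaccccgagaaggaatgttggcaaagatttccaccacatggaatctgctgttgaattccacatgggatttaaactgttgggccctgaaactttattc
Aspn: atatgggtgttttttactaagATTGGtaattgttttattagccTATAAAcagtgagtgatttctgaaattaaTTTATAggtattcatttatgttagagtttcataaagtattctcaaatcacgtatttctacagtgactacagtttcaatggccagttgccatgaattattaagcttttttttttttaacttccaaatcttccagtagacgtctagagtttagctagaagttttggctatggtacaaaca
Ecm2: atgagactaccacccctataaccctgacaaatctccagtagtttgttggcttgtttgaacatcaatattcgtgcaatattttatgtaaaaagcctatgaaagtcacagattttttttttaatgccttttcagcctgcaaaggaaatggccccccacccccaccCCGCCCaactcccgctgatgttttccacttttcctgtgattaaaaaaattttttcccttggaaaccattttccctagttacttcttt
Pi16: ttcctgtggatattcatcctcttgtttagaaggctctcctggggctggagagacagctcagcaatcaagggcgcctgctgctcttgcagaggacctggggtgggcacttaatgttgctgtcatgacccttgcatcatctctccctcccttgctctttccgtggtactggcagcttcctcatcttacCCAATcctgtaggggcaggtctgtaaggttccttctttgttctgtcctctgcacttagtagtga
Over all 32851 promoter entries of the same length, 12.4% held TATAAA, 33.8% CCAAT and 32.7% GGGCGG. Omd had 0 matches in this window, Ogn and Aspn had TATAAA, Ecm2 had GGGCGG and Pi16 had CCAAT, and Aspn also had CCAAT, on the other strand. No motif was matched in all 4 neighbours.

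Omd was at 100 CPM in 3 of 13 and 5 of 17 Lum-positive wells, with highest values of 427 and 856 CPM. The 31 Lum-negative wells of batch 1 held 0 Omd reads, and the 19 of batch 2 held 1 read. The class level was at least 315-fold higher in Lum-positive wells of batch 1, against a floor of 3 reads over the Lum-negative class, and 908-fold higher in batch 2 (exact 95% counting interval 162 to 35890-fold, since it rests on that 1 read). On the log2 scale with the pseudocount, the ratios were 6.29 and 6.59, and without replicate 92 of batch 1 the first was 5.39. A Lum limit of 200 CPM moved a Lum-positive well with Omd reads, replicate 78, to the Lum-negative class, and the batch 1 ratio was then 2.08 and Omd was no longer called. With no endothelial gene at 100 CPM the batch 2 ratio was 5.74.

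The neighbours of Omd did not follow Lum in the same way. Ogn, for osteoglycin, reached 100 CPM in 4 of 13 Lum-positive and 5 of 31 Lum-negative wells of batch 1, but in 12 of 17 and 1 of 19 of batch 2. The log2 ratios were -0.47 and 2.40, and without replicate 68 of batch 2, the Lum-negative well with 97% of the Ogn reads of its class, the second was 6.89. All 3 and all 5 wells with Omd at 100 CPM also had Ogn at 100 CPM, a pairing counted after the values were seen. Aspn, for asporin, had ratios of 0.93 and 2.32, and Ecm2 of -0.37 and -1.91. Epyc, a neighbour of Lum, had all its 581 reads of the Lum-positive class of batch 2 in 1 well and 0 reads in either class of batch 1.

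Of 11 small leucine-rich proteoglycans other than Lum, 9 were tested, 2 (Dcn and Omd) were called higher in the Lum-positive class and 0 in the Lum-negative class, against 0.737% and 2.11% of all genes tested. Both lost the call under 1 alternative each, as given above. Medians over the 9 were 0.93 and 2.32, against -0.22 and -0.12 over all genes tested. Fmod, for fibromodulin, had ratios of 3.94 and 5.90 and missed the call because, without replicate 48 of batch 1, the first was 1.84. Fmod was at 100 CPM in 3 of 13 and 11 of 17 Lum-positive wells and in 1 of 31 and 1 of 19 Lum-negative wells. Bgn, for biglycan, reached 100 CPM in all wells of both classes, with ratios of 0.98 and 0.25.

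The other genes called in the Lum-positive direction were each high in some of the wells. Sfrp4, a secreted Wnt antagonist, reached 100 CPM in 5 of 13 and 4 of 17 Lum-positive wells and in 0 of 31 and 0 of 19 Lum-negative wells, with log2 ratios of 7.35 and 6.91. A single well, replicate 35, held 84% of its batch 1 reads in that class, and without it the ratio was 4.95; without replicate 66 of batch 2 it was 6.14. Wisp2, of the CCN family of matrix proteins, reached 100 CPM in 7 of 13 and 5 of 17 wells against 2 of 31 and 0 of 19. Its ratios were 4.70 and 7.23, the second resting on 3 Lum-negative reads (574-fold, 196 to 2787-fold). Leaving out replicate 92 or 85 of batch 1 gave 4.07 or 6.004, and leaving out replicate 85 of batch 2 gave 5.83. With Sfrp4 and Wisp2, 2 of the 7 tested secreted Wnt modulators were called, of 12 listed, against 0.737% of all genes tested, and the list medians were 0.85 and -0.40. Sfrp1 and Frzb, the most abundant Wnt modulators besides these, had ratios of 0.02 and 0.63, and of -1.03 and -0.84.

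Itgbl1, an integrin-like secreted protein, reached 100 CPM in 3 of 13 and 8 of 17 Lum-positive wells against 1 of 31 and 0 of 19, with ratios of 4.59 and 6.66, and leaving out replicate 35 or 31 of batch 1 gave 3.63 or 5.68. At a Lum limit of 200 CPM the batch 1 ratio of Itgbl1 was 2.48 and the call was lost. Epha3, a receptor for ephrins, did so in 6 of 13 and 3 of 17 wells against 0 of 31 and 0 of 19, with ratios of 6.38 and 5.47, and 4.69 without replicate 34 of batch 2. Entpd2, an enzyme that hydrolyses extracellular nucleotides, reached 100 CPM in 4 of 13 and 4 of 17 wells and in none of the 50 Lum-negative wells. Its ratios were 6.02 and 6.39, and 5.70 without replicate 42 of batch 2. Rbp4, the carrier of retinol, was high in 2 of 13 and 5 of 17 wells, reaching 6551 and 10649.5 CPM, and in 3 of 31 and 0 of 19 Lum-negative wells. Its ratios were 5.10 and 6.80. Leaving out replicate 86 or 15 of batch 1 gave 3.91 or 6.08, and leaving out replicate 66 of batch 2 gave 5.86. With no endothelial gene at 100 CPM Rbp4 had 4.28 and 6.41 and was not called. The median Lum-positive well of batch 1 had 71.4 CPM of Entpd2 but 7.42 CPM of Rbp4 and 6.16 CPM of Itgbl1.

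The remaining members of the 15 genes with the largest ratios were Fmo2, a flavin monooxygenase; Gdf10, a ligand of the TGF-beta family; Tmeff2, Nkain4 and Trabd2b, which encode membrane proteins; Alpl, alkaline phosphatase; and Zfpm2, a cofactor of GATA factors. Each reached 100 CPM in 2 to 4 of 13 and 2 to 5 of 17 Lum-positive wells and in 0 Lum-negative wells. Their ratios ran from 4.94 (Zfpm2) to 6.40 (Gdf10) in batch 1 and from 4.48 (Zfpm2) to 6.59 (Fmo2) in batch 2. With no endothelial gene at 100 CPM, Alpl (5.62 and 4.64), Fmo2 (6.31 and 4.0003), Gdf10 (5.34 and 5.12) and Nkain4 (7.32 and 5.22) were not called. Without the wells with Cd74 at 100 CPM, Alpl had 0.88 in batch 2 and was not called, and Zfpm2 was not called between wells with Lum at 500 CPM or more and under 50 CPM. Several ratios rest on 1 to 3 Lum-negative reads: 910-fold for Fmo2 in batch 2 (163 to 35973-fold), 591-fold for Gdf10 in batch 1 (163 to 4889-fold), 219-fold for Trabd2b in batch 1 (74.4 to 1067.5-fold) and 203-fold for Zfpm2 in batch 2 (36.04 to 8068-fold). Leaving out the well that lowers each ratio most brought them to between 3.81 (Zfpm2, without replicate 42) and 5.78 (Fmo2, without replicate 86) in batch 1. In batch 2 they then lay between 3.43 (Zfpm2, without replicate 34) and 5.51 (Fmo2, without replicate 66). Moves of over 1.5 times were also seen for Gdf10 without replicate 96 (5.40), Tmeff2 without replicate 92 (5.12), Trabd2b without replicate 48 (3.85) and Nkain4 without replicate 39 (6.96) of batch 1. In batch 2 they were seen for Gdf10 without replicate 85 (5.43), Tmeff2 without replicate 79 (5.44), Nkain4 without replicate 79 (5.01), Trabd2b without replicate 34 (4.84) and Alpl without replicate 66 (4.33).

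**Figure D3:**
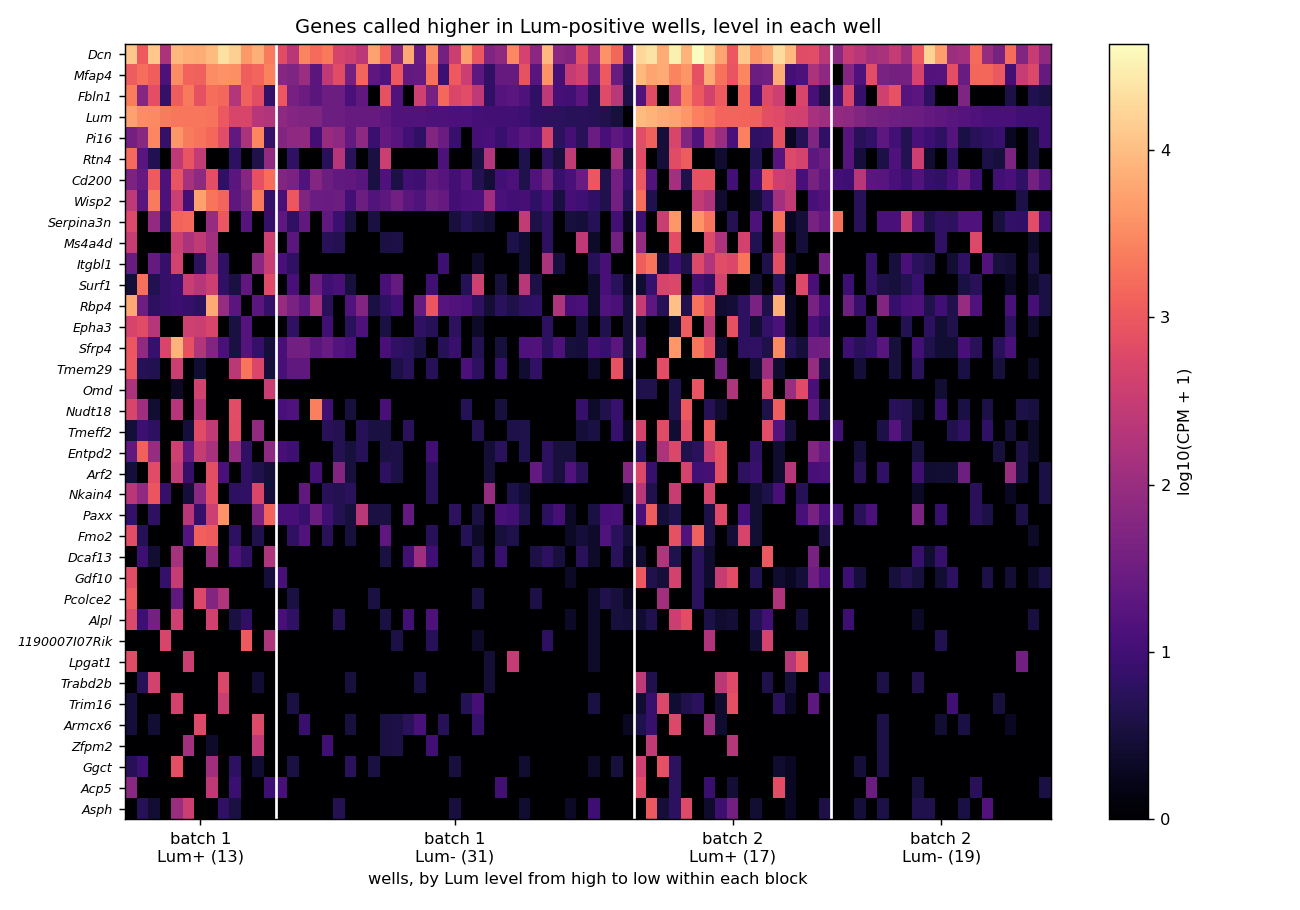
Level, as log10(CPM + 1), of the 37 genes called higher in the Lum-positive class (rows, by number of wells at 100 CPM) in each of the 80 wells (columns, by class and by falling Lum level). Dcn and Mfap4 fill most Lum-positive columns, while the lower rows are bright in a few wells of a class.

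No well carried all of these genes. Of the 36 called genes other than Lum, a Lum-positive well had a median of 10 at 100 CPM in batch 1 (3 to 21) and 9 in batch 2 (1 to 17). Lum-negative wells had a median of 2 in each batch (0 to 5 and 0 to 3). The ranges overlapped in both batches, and the choice of these genes fixed the direction of the difference. Pi16 and Omd shared few wells: 1 Lum-positive well of batch 1 held both at 100 CPM, 7 held Pi16 without Omd, 2 Omd without Pi16 and 3 neither. In batch 2 the numbers were 0, 7, 5 and 5. Omd was at 100 CPM in 3 of 13 and 5 of 17 wells, so unrelated genes would share few wells too. Whether the 2 genes avoid each other was not tested. All 7 Pi16 wells of batch 2 had Fmod at 100 CPM, as did 3 of the 8 of batch 1. Fmod was also at 100 CPM in 4 Lum-positive wells of batch 2 without Pi16. Pi16 was joined by Cd200 in 5 of 8 and 4 of 7 wells. These pairs were counted after the values were seen, and they rest on few wells.

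Genes whose level followed Lum over all chosen wells of a batch were ranked by the smaller Spearman rho of both batches, given as a description because the wells share a plate and the classes were cut from Lum. Mfap5, of elastic microfibrils, was first after Lum with rho of 0.54 (44 wells) and 0.61 (36 wells), and Dcn (0.53 and 0.72) and Pi16 (0.54 and 0.53) were close to it. Mfap4, Fbln1, Entpd2, Wisp2, Omd, Sparc and Col14a1 made up the 10. Mfap5 was very abundant, with a median of 11676 CPM in Lum-positive wells of batch 1 against 341 CPM, and of 5165 against 92.1 CPM in batch 2. Its log2 ratios were 4.21 and 2.13, and it was not called because without replicate 85 of batch 2 the second was 1.84; without replicate 68 it was 3.88. Sparc, a collagen-binding matricellular protein, had ratios of 1.34 and 1.03, and its medians were 35976 against 13343 CPM and 26839.8 against 10921 CPM.

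Pi16 was the single called member of the adventitial fibroblast markers, of which 7 of 12 were tested. The medians were 2.41 and 0.99, and 6 of the 7 had a ratio above 0 in both batches. Ly6a, a surface antigen of progenitor-like stromal and vascular cells, was at 100 CPM in 11 of 13 against 23 of 31 wells and in 11 of 17 against 7 of 19 wells. Its ratios were 3.65 and 0.34, and leaving out replicate 68 of batch 2 moved the second to 2.38. Igfbp6, an IGF binding protein, had ratios of 3.17 and 0.99. Cd34 had ratios of 2.41 and 2.85, but 0.35 in batch 2 without replicate 79. Dpp4, another marker of such fibroblasts, had 2 and 11 reads in the Lum-positive and 1 and 1 reads in the Lum-negative classes, too few for a comparison.

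Pdgfra, a widely used fibroblast marker, did not go with Lum. Pdgfra was at 100 CPM in 3 of 13 and 2 of 17 Lum-positive wells and in 7 of 31 and 4 of 19 Lum-negative wells. Values ran from 0 through 1.62 to 2527 CPM and from 0 through 7.01 to 1869 CPM in batch 1, Lum-positive first, and from 0 through 0 to 386 CPM and from 0 through 9.27 to 1192 CPM in batch 2. Most wells of either class were near 0. The log2 ratios were -0.02 and -1.65, and under the alternatives and without single wells the batch 1 value lay between -0.74 and 0.77. Of the 12 fibroblast markers, 9 were tested, Dcn and Fbln1 were called, and the medians were 0.20 and 0.55, the second being -0.13 after thinning. Col14a1, a collagen that binds fibrils, had ratios of 1.90 and 1.81 and reached 100 CPM in 9 of 13 and 12 of 17 Lum-positive against 8 of 31 and 4 of 19 Lum-negative wells. With no endothelial gene at 100 CPM the second ratio of Col14a1 was 0.85. Gsn, for the actin-severing protein gelsolin, had ratios of 0.05 and -0.42.

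The fibrillar collagens used in the choice of wells were higher in the Lum-positive class by less than 4-fold. Col1a1, a chain of type I collagen, had medians of 10174 against 4298 CPM in batch 1 and 11533 against 4792 CPM in batch 2, and its ratios were 0.76 and 1.30. Col1a2 had ratios of 0.85 and 1.13 and Col3a1, of type III collagen, of 1.05 and 0.46. The classes overlapped widely, and the highest Col1a1 well of batch 1, at 40771 CPM, was Lum-negative. Of the 10 fibrillar collagens and partners, 9 were tested and 0 were called, with medians of 0.85 and 0.46. This list includes the collagens used in the choice of wells, and its medians are the ratios of Col1a2 in batch 1 and Col3a1 in batch 2. It is thus no independent description of the classes. Of 16 collagen processing genes, all tested, Pcolce2, which enhances the cleavage of procollagen, was called. It reached 100 CPM in 3 of 13 and 2 of 17 wells against 0 of 31 and 0 of 19, and with the mean of CPM over wells it was not called. None of the 16 tested basement membrane and microfilament collagens was called. Of 20 tested elastic fibre and matricellular genes, Fbln1 and Mfap4 were called, and the medians were -0.39 and 0.40. Postn, for periostin, had ratios of 1.05 and 0.96, and 0.33 in batch 2 without replicate 42.

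**Figure D4:**
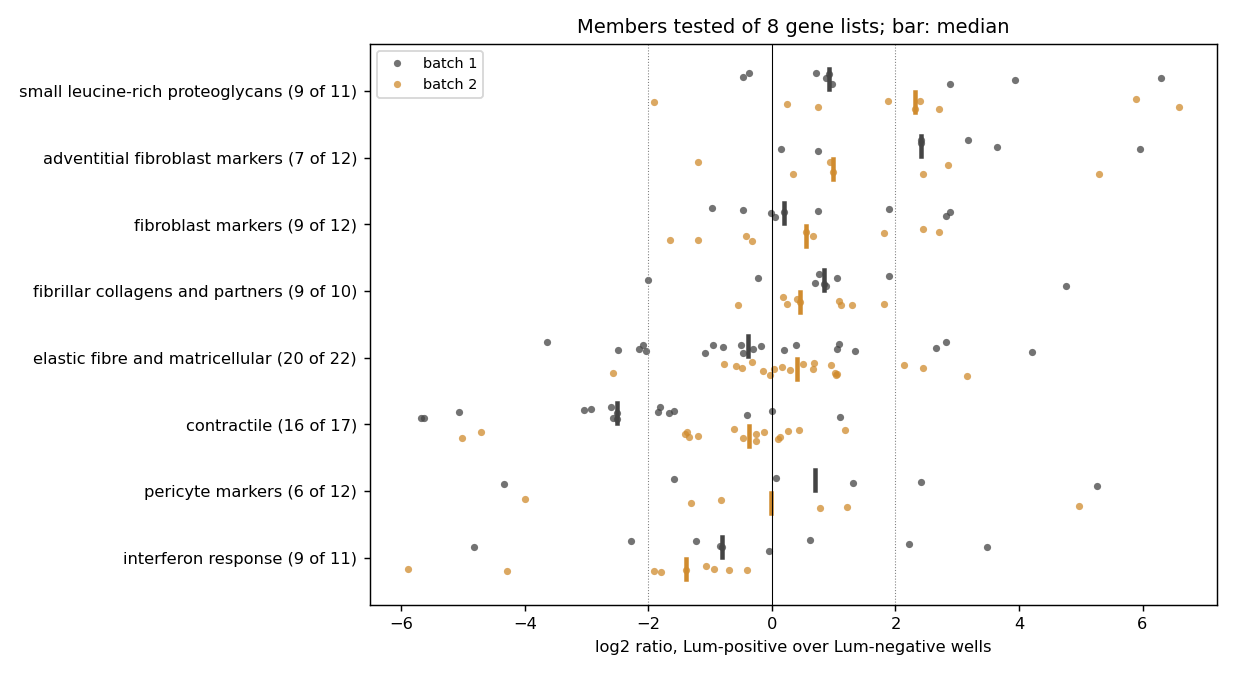
Log2 ratio of Lum-positive over Lum-negative wells for the tested members of 8 gene lists in batch 1 (grey) and batch 2 (orange), with list medians as bars and 4-fold dotted; the tested and listed numbers stand beside each name. The small leucine-rich proteoglycans and adventitial markers lie mostly right of 0, while the contractile medians are -2.51 in batch 1 and -0.37 in batch 2.

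In the Lum-negative direction, Spp1 was the most abundant gene called. It encodes osteopontin, a secreted phosphoprotein. Its class level was 2219.7 against 136 CPM in batch 1 and 4426 against 277 CPM in batch 2, log2 ratios of -4.02 and -3.99. The difference came from a few very high wells: the highest were 22531 and 24014 CPM, and the medians were 169 against 74.5 CPM in batch 1 but 78.5 against 104 CPM in batch 2. Spp1 reached 100 CPM in 21 of 31 Lum-negative and 6 of 13 Lum-positive wells of batch 1, and in 6 of 19 and 9 of 17 of batch 2. Without replicate 49 of batch 2 the second ratio was -2.96. With the mean of CPM over wells in place of the sum, or with thinning, Spp1 was not called.

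Pla2g4a, the phospholipase that frees arachidonic acid, reached 100 CPM in 7 of 31 and 10 of 19 Lum-negative wells and in 0 of 13 and 0 of 17 Lum-positive wells, which allow shares of up to 24.7% and 19.5%. Its medians were 1.13 against 1.65 CPM in batch 1 and 104 against 0.985 CPM in batch 2. The ratios were -4.87 and -6.72, and -6.09 without replicate 49 of batch 2. Nav3, a microtubule-binding protein, did so in 8 of 31 and 4 of 19 wells against 0 of 13 and 0 of 17, with ratios of -6.98 and -5.30, and -4.37 without replicate 23 of batch 2. At a Lum limit of 50 CPM the batch 1 ratio of Nav3 was -2.07, and the call was lost. Calcrl, the receptor subunit for calcitonin gene-related peptide and adrenomedullin, reached 100 CPM in 4 of 31 and 8 of 19 wells against 0 of 13 and 2 of 17. Its ratios were -3.70 and -2.87. Leaving out replicate 4 or 92 of batch 1 gave -2.55 or -4.35, and leaving out replicate 14 of batch 2 gave -3.61. Osmr, the receptor of oncostatin M, had ratios of -4.47 and -3.11. Leaving out replicate 37 of batch 1 gave -5.72, and leaving out replicate 7 or 14 of batch 2 gave -2.45 or -4.34. Both lost the call at a Lum limit of 50 CPM, with batch 2 ratios of -2.25 for Calcrl and -1.88 for Osmr. Calcrl and Osmr were named after their values were seen.

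The other genes with the largest ratios toward Lum-negative wells were high in 2 to 6 of 31 and 2 to 5 of 19 wells. They were Sash1, Lgi2, Papss1 (which makes the sulfate donor of the cell), Erlin2, Snord118, Clk4, Nectin1 (an adhesion molecule), Zfp281, Stat6 (the factor activated by interleukin 4), Adora2b (an adenosine receptor), Ciapin1, Kcnmb1 (a subunit of the calcium-activated potassium channel of smooth muscle) and Snrnp48. All 13 were at 100 CPM in 0 Lum-positive wells. Their ratios ran from -5.85 (Clk4) to -4.73 (Adora2b) in batch 1 and from -6.15 (Sash1) to -4.78 (Ciapin1) in batch 2. Without the well that brings each nearest to 0 they ran from -5.05 (Lgi2, without replicate 62) to -3.98 (Snrnp48, without replicate 47) in batch 1. In batch 2 that range was from -5.32 (Papss1, without replicate 49) to -4.02 (Ciapin1, without replicate 23). Zfp281 had 0 reads in both Lum-positive classes and was at least 67.8-fold and 180-fold higher in the Lum-negative classes, and Sash1 in batch 2 was at least 189-fold higher. Kcnmb1 had ratios of -5.33 and -5.44, but with the collagen minimum at 1000 CPM its batch 1 ratio was 0.10 and the call was lost. At a Lum limit of 50 CPM, Papss1 had -0.54 and Stat6 -1.04 in batch 1, and neither was called. With no endothelial gene at 100 CPM, Zfp281 had -0.19 in batch 2, and Zfp281, Ciapin1, Sash1 and Snrnp48 were not called. Snrnp48 and Kcnmb1 were also not called at a collagen sum of 5000 CPM. Of the 106 genes, 103 in batch 1 and 104 in batch 2 were at 100 CPM in fewer than 1 in 3 Lum-negative wells. The strand setting of the counting is not given in the sources used here, so reads of overlapping genes such as Snord118 cannot be told apart.

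The contractile genes had a median ratio of -2.51 in batch 1 and -0.37 in batch 2, a difference between batches that was not tested. Over the alternatives this median ran from -3.19 to -1.84 in batch 1 and from -1.56 to -0.26 in batch 2. The -1.56 came from wells with Lum at 500 CPM or more against under 50 CPM, a comparison added after the data were seen. The batch 2 ratio of Acta2 there was -1.33. At a collagen sum of 1000 CPM the batch 1 median was -1.84 and the batch 1 ratio of Acta2 -1.71. Acta2, for smooth muscle actin, ran from 23.3 through 297 to 2697 CPM in Lum-positive and from 84.6 through 1829 to 19607 CPM in Lum-negative wells of batch 1, and its ratio was -2.58. In batch 2 it ran from 12.4 through 721 to 9684 CPM and from 13.6 through 1161 to 10464 CPM, with a ratio of 0.14. Above 1000 CPM were 4 of 13 Lum-positive and 19 of 31 Lum-negative wells of batch 1, and 6 of 17 and 10 of 19 of batch 2. Of 17 contractile genes, 16 were tested and 0 called; 9 had a ratio below 0 in both batches and 0 above. Mylk, the kinase of myosin light chain, and Des, for desmin, were at least 2-fold lower in the Lum-positive class in both batches, also without any single well. Mylk reached 100 CPM in 0 of 13 and 4 of 17 Lum-positive wells and 15 of 31 and 10 of 19 Lum-negative wells, with ratios of -5.69 and -1.34. Des had ratios of -5.64 and -1.37.

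Pdgfrb, the gene of the sort marker, reached 100 CPM in 3 of 13 (23.1%, 5.04 to 53.8%) and 5 of 17 (29.4%, 10.3 to 55.96%) Lum-positive wells. The Lum-negative counts were 15 of 31 (48.4%, 30.2 to 66.9%) and 12 of 19 (63.2%, 38.4 to 83.7%). The intervals cover counting error only, and their overlap in both batches is no test of a difference, since cells of a plate are not replicates. Its median was 14.8 against 74.7 CPM and 11.2 against 554 CPM, and the ratios were -1.58 and -0.83. Leaving out replicate 93 of batch 1 gave -2.54, and leaving out replicate 66 of batch 2 gave -1.46. Of 12 pericyte markers, 6 were tested: 3 had a ratio above 0 in both batches, 2 below 0 and 1 opposite signs. The list medians were 0.70 and -0.02, so the list as a whole did not go with either class in both batches. Mcam, an adhesion molecule of vessel walls, was called, at 100 CPM in 4 of 31 and 2 of 19 Lum-negative and 0 Lum-positive wells. Its ratios were -4.33 and -4.00, the second resting on 3 Lum-positive reads (56.4-fold, 18.97 to 276-fold). They were -3.00 once replicate 47 of batch 1, and -2.78 once replicate 56 of batch 2, was left out. Under several alternatives, among them a Lum limit of 200 CPM and thinning, Mcam was not called. Rgs5, another pericyte gene, had ratios of 2.41 and 1.22, and 1.02 and -0.09 without replicate 96 of batch 1 and replicate 66 of batch 2.

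**Figure D5:**
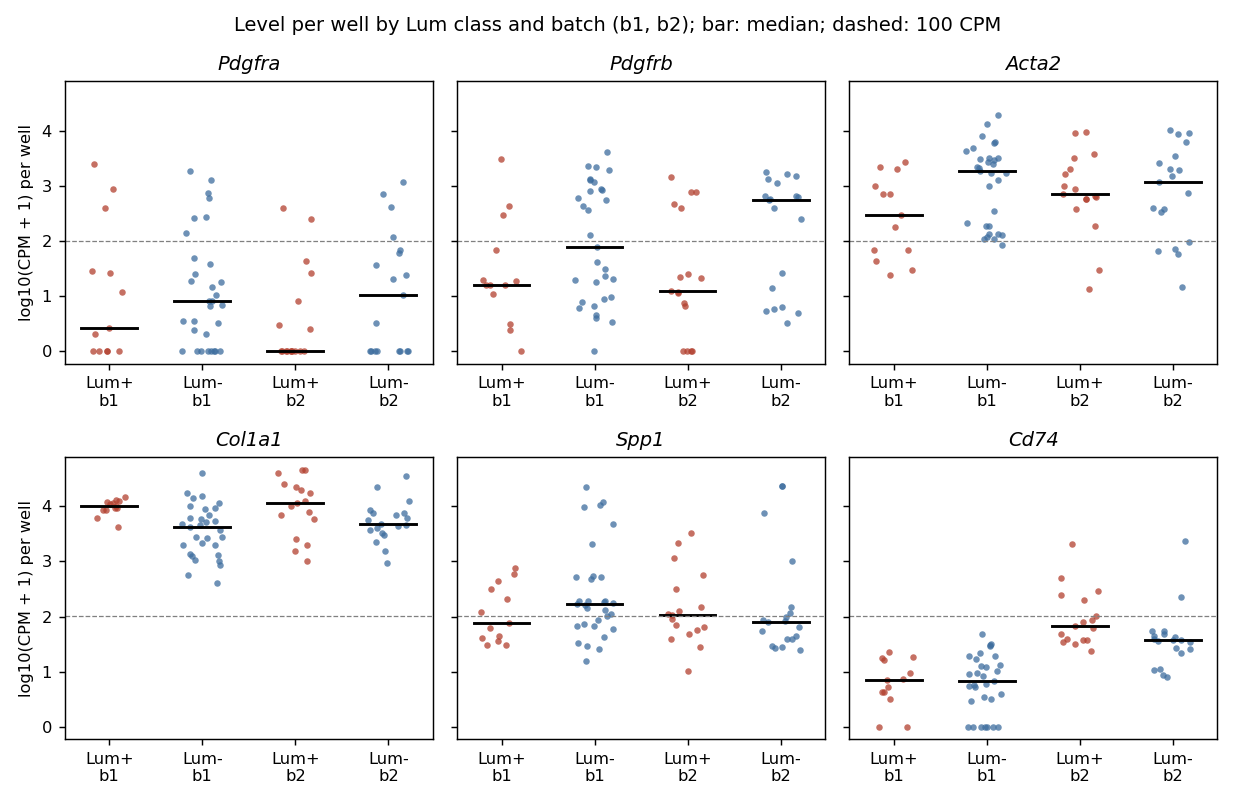
Level of 6 genes in each well as log10(CPM + 1), for Lum-positive (red) and Lum-negative (blue) wells of both batches, with medians as bars and 100 CPM dashed. Pdgfra is near 0 in most wells of both classes, Pdgfrb passes 100 CPM in more Lum-negative wells, Acta2 medians are 297 and 1829 CPM in batch 1 and 721 and 1161 CPM in batch 2, and Cd74 is higher in batch 2 than in batch 1 in both classes.

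At 2-fold in both batches, also without any single well, 73 genes (1.45% of those tested) were higher in the Lum-positive and 224 (4.46%) in the Lum-negative class. Of 7 mesangial and renin markers, 4 were tested and 0 called, with medians of -3.37 and -0.33. Among the 4, 1 had a ratio above 0 in both batches, 2 below 0 and 1 opposite signs. Serpine2, a protease inhibitor of this list, was 2-fold lower or more in the Lum-positive class in both batches, also without any single well. It reached 100 CPM in 2 of 13 and 7 of 17 wells against 25 of 31 and 14 of 19, and its ratios were -3.82 and -1.68. They were -5.10 once replicate 93 of batch 1, and -2.53 once replicate 14 of batch 2, was left out. Of 11 interferon response genes, 9 were tested and 0 called, 6 with a ratio below 0 in both batches and 0 above, and the medians were -0.81 and -1.39. At a Lum limit of 50 CPM the batch 1 median was 0.17. Ifitm3, which restricts the entry of viruses, was at 100 CPM in all wells and had ratios of -0.85 and -0.95. None of the tested IGF axis (8 of 10), TGF-beta signalling (12 of 17), PDGF and hedgehog (4 of 12), metalloproteinase (11 of 15), complement (4 of 11), chemokine (7 of 13) or stromal transcription factor genes (14 of 21) was called.

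Markers of other cell types were also present in some of these wells, and their part in the differences above was not tested. Among 10 leukocyte markers none was tested, and Ptprc, which encodes CD45, had 1, 1, 0 and 5 reads over the 4 classes. Their summed level per well was 2.77 to 101 CPM in Lum-positive and 3.82 to 146 CPM in Lum-negative wells of batch 1, and 42.5 to 4468 and 7.04 to 5990 CPM in batch 2. At least 1 of them was at 100 CPM in 0 of 13, 1 of 31, 9 of 17 and 3 of 19 wells, so in batch 2 more Lum-positive wells held such reads. Cd74, of antigen presentation, was at 100 CPM in 6 of 17 Lum-positive and 2 of 19 Lum-negative wells of batch 2. Without the wells with Cd74 at 100 CPM, the batch 2 ratios were 2.67 for Dcn, 3.52 for Mfap4, 5.74 for Pi16 and 5.60 for Omd, and each was still called. Fbln1, at 2.36, was not. An endothelial gene of the 7 in the choice was at 100 CPM in 1 of 13, 6 of 31, 4 of 17 and 4 of 19 wells. Of 11 endothelial markers that the choice did not use, at least 1 was at 100 CPM in 7 of 13, 15 of 31, 9 of 17 and 7 of 19 wells, and 0 of the 4 tested were called. Tubule markers were at 100 CPM in 0 of 13, 4 of 31, 2 of 17 and 1 of 19 wells. Hemoglobin reads summed to medians of 5175 and 6318 CPM in batch 1 and 1917 and 3087 CPM in batch 2, Lum-positive first.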

How the data were processed

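Single cells were sorted into 96-well plates, converted to cDNA with a Clontech SMARTer kit and sequenced as paired reads, per the labels' protocols. The deposited tables hold whole-number counts, not normalized by the authors, for each gene in each well. STAR 3.0.4, Subread and featureCounts 1.4.5 are listed, per the submitters' processing notes; the build and annotation are not given in the sources used here, and molecular identifiers are not stated, so intervals cover counting error only. Repeated gene lines with identical counts (598 in batch 1 and 595 in batch 2) were dropped, leaving 40594 genes. CPM were computed over the reads of a well, or over the summed reads of a class, with Python 3.11.15, pandas 2.3.3 and scipy 1.17.1. No doublet caller was run, and no count model was fitted, because each plate is 1 sample. A call needed 4-fold in both batches, with all wells and without any single well, at a minimum of 20 CPM. The procedure was tested on simulated data in which a changed gene was raised in every well of a class. Most genes called here were high in few wells, so that test does not show how far these calls hold. Named genes were the 15 per direction with the largest ratio without the worst well (no mitochondrial, ribosomal protein, pseudogene or predicted genes), up to 4 abundant members per list, the 10 highest Spearman rho with Lum, and 9 further genes set by name. Not all abundant list members that meet this rule are described above, and Ndufa4l2, Heyl, Ren1 and Itga8 are among those left out. Outside this rule, and after their values were seen, Cd200, Aspn, Ecm2, Epyc, Fmod, Cd34, Dpp4, Pcolce2, Spp1, Calcrl, Osmr, Mylk, Des, Mcam, Ptprc and Cd74 were named. The 28 gene lists and the members were chosen with earlier results of these data known. TMM factors came from edgeR 4.0.16. Replicate numbers of wells follow the order of listing. The highest correlation of log levels between chosen wells of a plate was 0.659 and 0.665, so no pair of wells looked like a repeated library.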

Additional observations from a re-analysis of the deposited data

Results flagged for a closer look

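Wells of the PDGFRB+CD45+ gate, which entered no comparison, were passed through the same limits. Of 154 such wells with at least 50000 reads, 7 met the endothelial and collagen limits (4.55%). Batch 1 had 5 of 76 (6.58%) and batch 2 had 2 of 78 (2.56%). For scale, a count of 0 would allow up to 1.95% of the 154 wells, 3.95% in batch 1 and 3.85% in batch 2. These bounds are no test of the counts seen, and cells of a plate are not replicates. Lum was at 100 CPM in 3 of the 154 CD45+ wells, of which 2 were among the 7. These wells were drawn to attention because they hold a collagen signal outside the CD45- gate.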

How the results depend on the processing

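The count of genes called higher in Lum-positive (37) and Lum-negative wells (106) changed most with the rule itself. It was 172 and 334 when single wells were not left out, 73 and 224 at a 2-fold limit, 20 and 22 with a pseudocount of 10 CPM, and 6 and 0 when 100 CPM in 1 in 3 wells of the higher class was also asked. Leaving out each of the 80 wells in turn gave 32 to 44 and 92 to 132. All other alternatives stayed within 1.5 times of both counts (26 to 48 and 71 to 157), among them a comparison of wells with Lum at 500 CPM or more against under 50 CPM (40 and 157), added after the data were seen, as was the set without Cd74 wells (34 and 156). The genes behind the counts changed more: 20 of the 37 and 64 of the 106 stayed called with no endothelial gene at 100 CPM, and 34 and 68 at a Lum limit of 50 CPM, where 96 of the 106 kept their sign in both batches. Median-of-ratios factors shifted the median ratio of all genes by 0.36 in batch 1 and 0.11 in batch 2, and TMM factors by 0.18 and 0.05. Of 44 genes followed through all settings, 34 of them called, 1 called gene changed sign in 1 batch, Kcnmb1 (0.10 in batch 1 with a collagen sum of 1000 CPM). All 37 and 106 genes kept their sign in both batches under both scaling factors. The call itself fixed this, since called genes differed by at least 4-fold and the factors shifted ratios by far less. Of the list medians printed in the report, that of the pericyte markers in batch 2 (-0.02) changed sign, to 0.02 with TMM and 0.09 with median-of-ratios factors. Medians that were not printed changed sign too, among them collagen processing, metalloproteinases, PDGF and hedgehog, and stromal transcription factors. How many printed medians kept their sign thus depends on which were printed and is no measure of robustness. The median over all genes tested in batch 1, -0.22, was smaller than the shift of 0.36, so its sign depends on the scaling. The list median of the fibroblast markers in batch 2 (0.55) was -0.11 with the mean of CPM over wells and -0.13 after thinning. That of the interferon genes in batch 1 (-0.81) was 0.17 at a Lum limit of 50 CPM. No paired analysis was possible because replicate numbers only name wells and no test was made. Depth limits the negative results: a gene with 0 reads in a class may still have had up to 3 over its wells.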
